A study of Mus musculus with 4 samples.

Results

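This section describes 35 genes of endoplasmic reticulum (ER) stress and protein folding in mouse glomeruli. They were chosen by name as members of the pathway, with earlier results of these data known. Each had a probe set that the array's annotation gives to 1 gene symbol. They were 35 of 18193 genes named in this way. The 35 genes had 78 such probe sets, and each gene is represented by its brightest one. The members fell into 6 groups by role: 4 stress sensors with the factor Xbp1, 6 genes of the PERK and ATF4 arm, 7 chaperones and secreted folding factors, 4 protein disulfide isomerases, 8 genes of ER-associated degradation and 6 genes of protein translocation and signal peptide cleavage.

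RNA came from glomeruli of male mice and was hybridised to 1 Affymetrix 3' expression array per group. KO ALDO mice lacked guanylyl cyclase A (GC-A, the receptor of atrial and B-type natriuretic peptide) in all tissues and were given aldosterone by continuous subcutaneous delivery with a diet of 6% salt. WT ALDO mice were wild type and had the same treatment. KO control mice lacked GC-A and received 2% ethanol with a normal diet, and WT control mice were wild type on that control treatment. All mice had had 1 kidney removed, and the series gives a treatment time of 3 weeks. The labels do not state strain, age, the aldosterone dose, the deleted part of the GC-A gene or the number of mice behind an array.

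The ER is where secreted and membrane proteins are made and folded. When unfolded proteins build up there, 3 membrane sensors, IRE1 (Ern1), PERK (Eif2ak3) and ATF6, start the unfolded protein response. IRE1 splices the Xbp1 transcript, PERK slows translation while favouring ATF4, and ATF6 is cut to release a transcription factor. The response raises chaperones and degradation factors, and on the PERK branch the factor CHOP (Ddit3). Podocytes and tubule cells, which secrete or carry large amounts of membrane and matrix protein, are known for a high folding load.

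No group had a replicate array. Differences between arrays therefore have no test, and having so few arrays limits how precise they are. Differences are in log2(intensity + 16). Over all 45101 probe sets the median intensity was 103 in KO ALDO, 91.9 in WT ALDO, 97.7 in KO control and 89.5 in WT control. The 21 probe sets of spiked-in control RNA had SDs of 0.10 to 0.14 in the differences between arrays, and medians of 0.03 and 0.05 between genotypes, but of -0.16 for ALDO against control in WT and -0.20 in KO. The 3' to 5' ratio of beta-actin was 1.61 in KO ALDO, 1.87 in WT ALDO, 1.67 in KO control and 1.86 in WT control. It was thus lower on both KO arrays, and its part in the genotype differences was not tested. Npr1, the gene of GC-A, was dim, with 23.4 in KO ALDO, 60.5 in WT ALDO, 108 in KO control and 92.6 in WT control, so its values did not serve as a check of the genotype labels. Podocyte genes were present (Nphs1 at 1675 to 1899, Podxl at 8492 to 10271), as were bright tubule genes (Slc34a1 at 24042 to 27261, Umod at 27142 to 30615). Tubule transcripts were thus present in these samples, and fewer cells of a type cannot be told apart from less RNA per cell. Genes were counted if their mean log2 value reached 8.04 (intensity 247), which kept the brighter 50%, 9097 genes and 31 of the 35 members. Trib3, Chac1, Asns and Derl3 lay below.

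Manf, Sdf2l1, Creld2 and Ddit3 had the highest differences of ALDO effects between genotypes among the brighter members, with a common pattern: all 4 were lowest in WT ALDO, lower in KO control than in WT control, and higher in KO ALDO than in WT ALDO. Sel1l, Spcs2, Pdia6, Edem1 and Os9 had the same order of signs at smaller size. The next probe set of Edem1 and that of Os9 did not have this order. That of Pdia6, which was dim, was lowest in KO control (80.9, against 82.2 in WT ALDO). Most other members differed little between arrays. Of the 35 members, 27 had a highest value under 1.5 times their lowest, as the plot of intensities by array shows. The share of all genes with so small a range was not computed, so this count does not set the members apart from other genes. WT control was the highest of the 4 arrays for 19 of the 31 members, against 26.7% of all genes counted. KO ALDO was highest for 7 (33.5% of genes), WT ALDO for 4 (22.3%) and KO control for 1 (17.5%). The lowest array was WT ALDO for 10 members (21.2% of genes), KO ALDO for 8 (30.2%), KO control for 8 (20%) and WT control for 5 (28.6%).

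**Figure D1:**
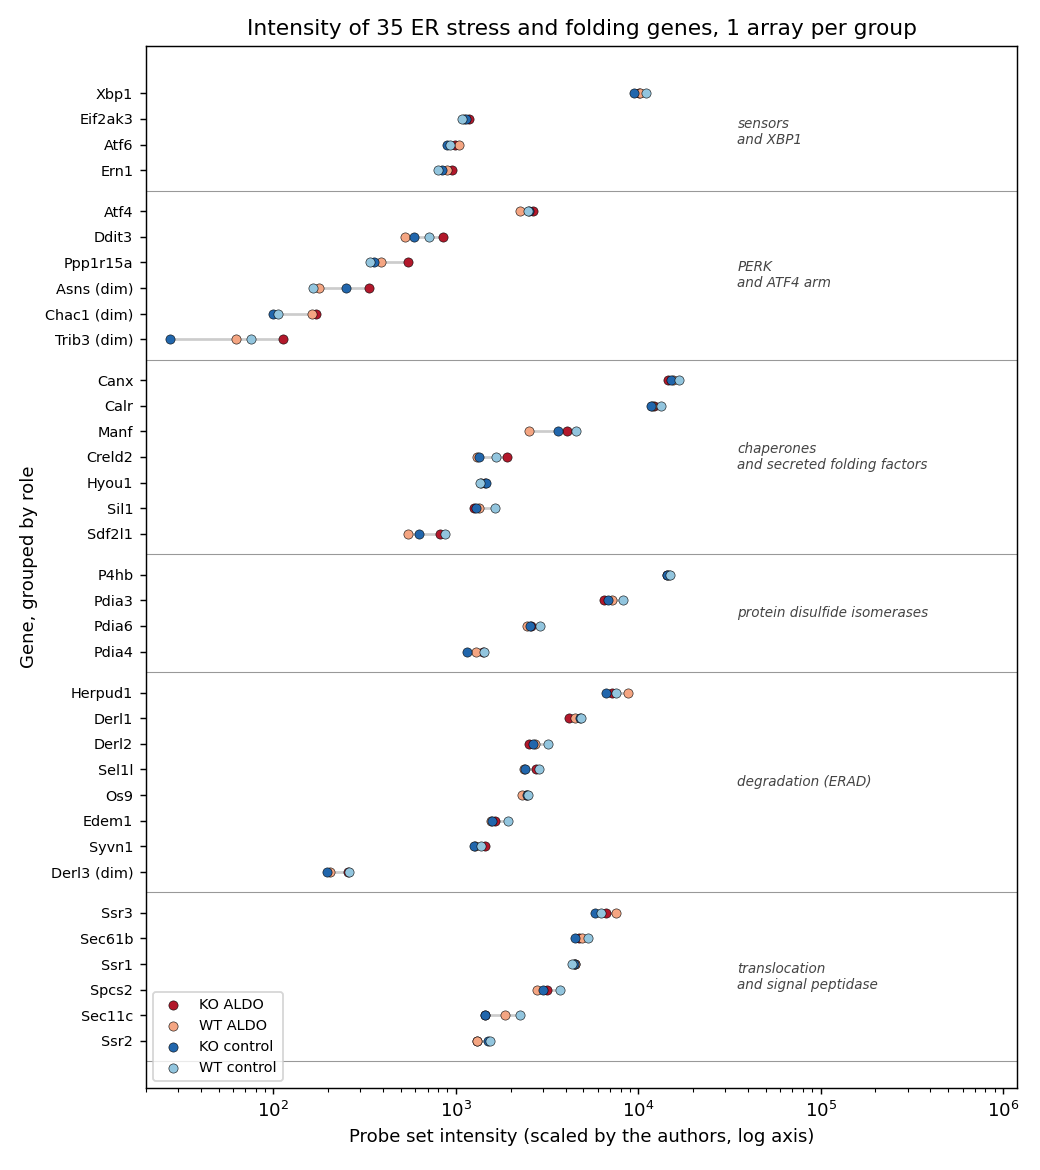
Probe set intensity (log axis) of the 35 members, grouped by role, with 1 point per array. Levels of different genes are not comparable, since they come from different probe sets. The 4 points of most genes lie close together, while Manf, Sdf2l1 and Ddit3 spread more widely with WT ALDO at the low end, and Ppp1r15a and Sec11c with other arrays there. Trib3, Chac1, Asns and Derl3 are marked as dim.

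The first comparison, KO control against WT control, addressed the genotype on the control treatment. Members were mostly slightly lower in KO control, with 6 of 31 above 0, against 49.7% of all genes, and a median log2 difference of -0.18, against -0.00 over all genes. Sec11c (-0.64) was the 1 member lower by 1.5-fold or more (1.51% of genes were), none was higher by that much (3.83% of genes), and none passed 2-fold in either direction (1.14% of genes). The members were bright: 27 lay in the brightest 25% of genes, where 23 of them and 55.8% of the genes were below 0. The median was -0.18 for those 27 members and -0.02 for all 4549 genes of that brightness. All values of this comparison, and of ALDO against control in WT, use the WT control array, so the 2 are not separate observations.

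KO ALDO was set against WT ALDO to see the genotype under aldosterone and salt. The list as a whole was close to 0, with 17 of 31 members above 0 (51.3% of genes) and a median of 0.07, against 0.01 over all genes. Ddit3 (0.69) and Manf (0.68) were higher by 1.5-fold or more, as were 6.55% of genes. Neither passed 1.5-fold with each array centred on its median. No member was lower by as much (2.42% of genes), and none passed 2-fold (1.62% of genes). The sign of the median is not settled: it was -0.076 with each array centred on its own median, a scaling that moved every difference of this comparison by -0.14, and -0.00054 for the 27 members in the brightest 25%, where all genes had a median of -0.05.

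These genotype comparisons share no array. Of the 31 members, 12 were lower in KO control than in WT control and higher in KO ALDO than in WT ALDO, a combination found in 16.5% of genes. The opposite combination held for 1 member, Ssr1, with differences close to 0, and for 14.9% of genes. Another 13 members were lower in KO under both treatments (33.8% of genes) and 5 were higher under both (34.8% of genes). In the plot of genotype differences, Manf, Sdf2l1, Creld2 and Ddit3 lie in the upper left, away from most members.

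**Figure D2:**
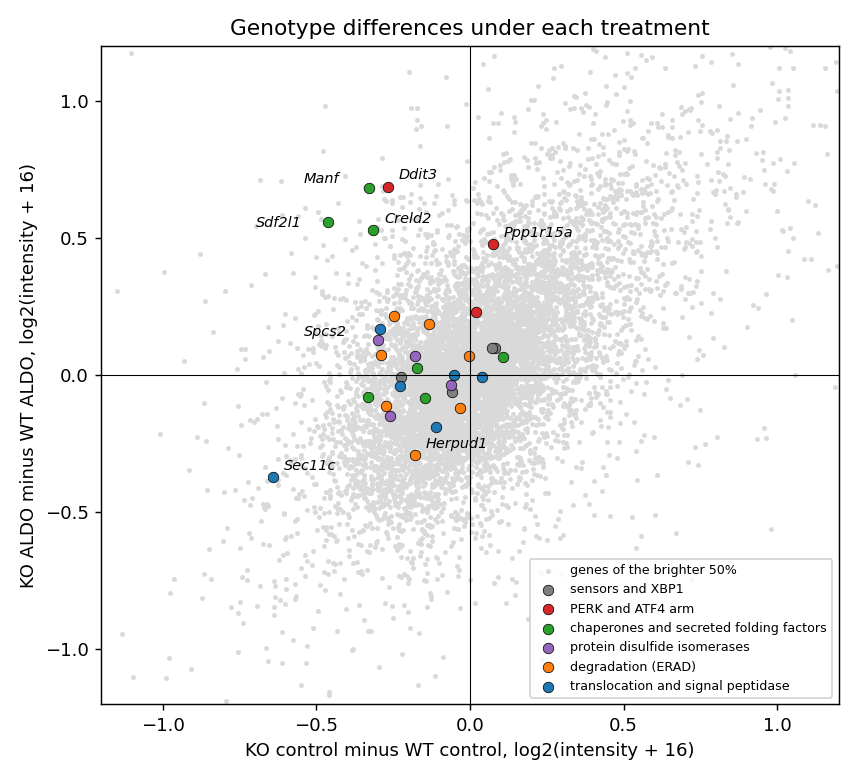
Log2 difference KO ALDO minus WT ALDO (vertical) against KO control minus WT control (horizontal) for the 31 members, coloured by role, and for the genes of the brighter 50% (grey). The 98 genes beyond 1.2 on either axis are not drawn. Manf, Sdf2l1, Creld2 and Ddit3 lie together at the upper left, with -0.46 to -0.27 on the horizontal and 0.53 to 0.69 on the vertical axis.

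WT ALDO against WT control gave the response to aldosterone and salt in wild-type mice. Members were mostly lower, with 8 of 31 above 0 (51.9% of genes) and a median of -0.14, against 0.01 over all genes. Manf (-0.85) and Sdf2l1 (-0.66) were lower by 1.5-fold or more, as were 1.6% of genes. None was higher by that much (2.04% of genes) or passed 2-fold (0.682% of genes). For Manf, 0.594% of all genes had a difference as low or lower, and for Sdf2l1 1.10%. In the brightest 25% of genes, 21 of 27 members and 48.9% of genes were below 0. The spiked-in control RNA also had a median below 0 here (-0.16), close to that of the members, and its part in the result was not tested.

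KO ALDO against KO control gave the same response in knockout mice, and here Manf (0.16) and Sdf2l1 (0.36) were above 0. The median was 0.06, against 0.01 over all genes, with 21 of 31 members above 0 (52.3% of genes). Ppp1r15a (0.60) was the 1 member higher by 1.5-fold or more (3.43% of genes), and it no longer was with quantile normalization, median centring or a pseudocount of 64. None was lower by as much (1.36% of genes) and none passed 2-fold (0.704% of genes). With each array centred on its median, the members' median was -0.0075. The spiked-in RNA was lower here too, with a median of -0.20.

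The ALDO effect in KO minus the ALDO effect in WT was above 0 for 25 of 31 members, against 50.6% of genes, with a median of 0.20 against 0.00. It was 1.5-fold or more for Sdf2l1 (1.02), Manf (1.01), Ddit3 (0.96) and Creld2 (0.84), and 3.35% of genes were as high. No member was lower by that much (2.07% of genes). Sdf2l1 and Manf passed 2-fold, against 0.923% of genes in either direction. For these 4 members, between 0.561% and 1.01% of all genes had a difference as high or higher. ALDO against control was below 0 in WT and above 0 in KO for 14 of the 31 members (19.1% of genes), and the opposite held for 1, Hyou1 (18.7% of genes). The difference of effects was not tested, since there was 1 array per group.

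Among the chaperones and secreted folding factors, Manf, Sdf2l1 and Creld2 had the highest differences of ALDO effects. Manf, a survival factor held in the ER and released under ER stress, had an intensity of 4066 in KO ALDO, 2529 in WT ALDO, 3637 in KO control and 4571 in WT control. Thus WT ALDO stood well below the other arrays, which lay closer together. Sdf2l1, a lumenal partner of DnaJ co-chaperones, had 815 in KO ALDO, 548 in WT ALDO, 632 in KO control and 875 in WT control. Creld2, a secreted protein induced by ER stress, had 1900 in KO ALDO, 1313 in WT ALDO, 1336 in KO control and 1665 in WT control. For Creld2 the WT ALDO and KO control arrays were nearly equal at the low end. KO ALDO minus WT ALDO was 0.68 for Manf, 0.56 for Sdf2l1 and 0.53 for Creld2, and KO control minus WT control was -0.33, -0.46 and -0.31 in the same order of genes. Each of these genes had a single probe set, so no further probe set could be read. Over quantile normalization, median centring, the mean of probe sets and both other pseudocounts, KO ALDO minus WT ALDO ranged from 0.54 to 0.73 for Manf, 0.42 to 0.57 for Sdf2l1 and 0.39 to 0.53 for Creld2.

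**Figure D3:**
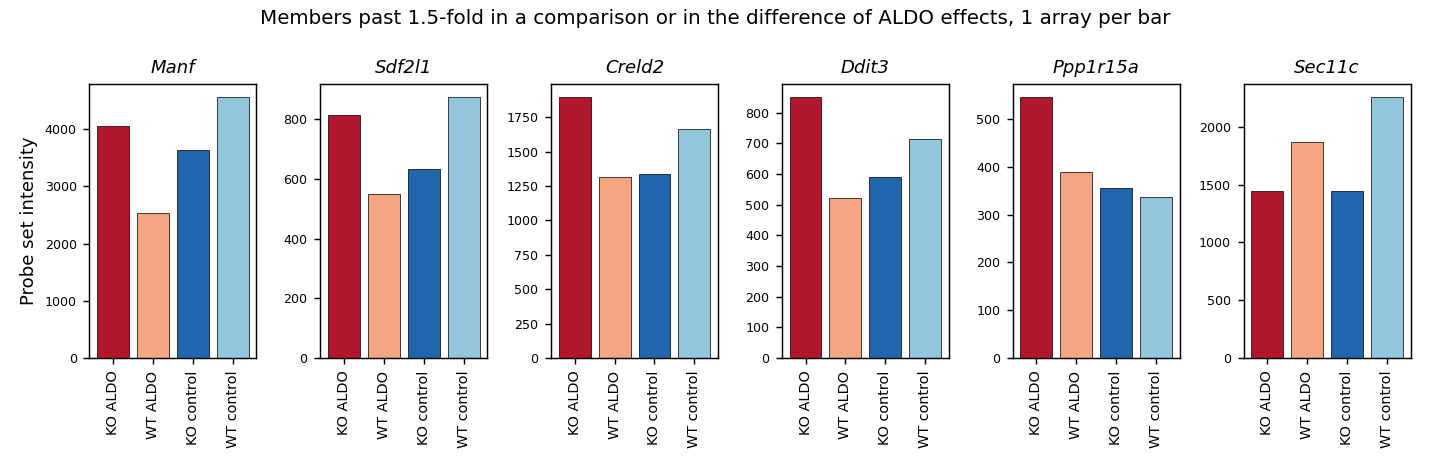
Probe set intensity of 6 members in each group, with 1 array per bar, no error bars and an axis of its own for each gene. WT ALDO is the lowest bar for Manf, Sdf2l1, Creld2 and Ddit3. KO ALDO is the highest for Creld2, Ddit3 and Ppp1r15a, and WT control is the highest for Sec11c.

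The larger chaperones varied less. Calr, the lectin chaperone calreticulin, had 12165 in KO ALDO, 11957 in WT ALDO, 11825 in KO control and 13321 in WT control. Canx, its membrane-bound relative calnexin, had 14620 in KO ALDO, 15511 in WT ALDO, 15118 in KO control and 16735 in WT control. Both were brightest in WT control and lay close together elsewhere. The 3 probe sets of Calr gave KO control minus WT control as -0.17, -0.28 and -0.22, and KO ALDO minus WT ALDO as 0.02, 0.01 and 0.07. The 3 of Canx gave -0.15, -0.28 and -0.26 on the control treatment and -0.09, -0.10 and -0.23 under ALDO. Sil1, a nucleotide exchange factor for the chaperone BiP, had 1259 in KO ALDO, 1333 in WT ALDO, 1293 in KO control and 1631 in WT control, again highest in WT control. Hyou1, a large Hsp70-like chaperone, had 1443 in KO ALDO, 1378 in WT ALDO, 1458 in KO control and 1352 in WT control, a nearly flat profile. Its next probe set did not follow: it had 281 in KO ALDO, 211 in WT ALDO, 331 in KO control and 367 in WT control, and so was lowest in WT ALDO, with ALDO against control at -0.76 in WT and -0.22 in KO. The direction for Hyou1 therefore depends on the probe set.

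Promoter sequences of the RefSeq table (build GRCm38.p6, 250 bases before to 50 after a gene's start) were read for these members, since the members with the WT ALDO pattern are known targets of the unfolded protein response. Of the 35 members, 28 had a window, and Manf, Hyou1, Sil1, Atf6, Derl1, Ssr2 and Sec11c had none. The ER stress element, CCAAT followed after 9 bases by CCACG on either strand, was found in 6 of the 28 members (Calr, Canx, Creld2, Derl3, Pdia6 and Syvn1) and in 39 of all 32851 windows, or 0.119%. The ER stress element II, ATTGG followed after 1 base by CCACG, was found in Herpud1 and in 0.0365% of windows. TGACGTGG, a site bound by XBP1 and ATF6, was in 0 members and 0.676% of windows. The amino acid response element TGATGNAAN was in Asns, Chac1, Herpud1 and Trib3 and in 3.95% of windows. None of the other motifs overlapped an ER stress element in the members. Whole windows are shown first for Creld2, Sdf2l1 and Ddit3, which had the WT ALDO pattern with a difference of ALDO effects of 1.5-fold or more. Shorter stretches around the match follow for the other members that hold an ER stress element. Sequences run 5′ to 3′ on the gene's strand, and capitals mark the fixed bases of the ER stress elements and, in Herpud1, of the amino acid response element as well. Matches on the opposite strand appear as their reverse complement.
Creld2, chr15:88819396-88819695, plus strand: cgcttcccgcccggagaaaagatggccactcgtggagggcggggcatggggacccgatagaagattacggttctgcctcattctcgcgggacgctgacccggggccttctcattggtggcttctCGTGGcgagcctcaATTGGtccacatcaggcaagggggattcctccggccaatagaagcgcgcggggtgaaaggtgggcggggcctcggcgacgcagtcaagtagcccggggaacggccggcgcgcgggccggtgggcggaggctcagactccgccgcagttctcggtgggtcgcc
Sdf2l1, chr16:17132334-17132633, minus strand: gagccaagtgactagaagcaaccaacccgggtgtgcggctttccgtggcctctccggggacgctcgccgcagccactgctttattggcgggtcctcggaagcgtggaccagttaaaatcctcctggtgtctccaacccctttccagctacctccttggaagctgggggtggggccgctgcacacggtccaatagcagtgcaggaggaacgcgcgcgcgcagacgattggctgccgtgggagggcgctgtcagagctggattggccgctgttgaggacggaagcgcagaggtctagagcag
Ddit3, chr10:127290543-127290842, plus strand: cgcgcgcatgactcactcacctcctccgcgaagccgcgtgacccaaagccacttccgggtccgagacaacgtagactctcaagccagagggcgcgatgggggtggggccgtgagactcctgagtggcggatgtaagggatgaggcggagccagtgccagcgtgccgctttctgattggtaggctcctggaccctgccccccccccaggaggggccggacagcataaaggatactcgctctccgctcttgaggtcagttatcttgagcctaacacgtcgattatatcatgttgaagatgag
Calr, chr8:84847055-84847113, minus strand: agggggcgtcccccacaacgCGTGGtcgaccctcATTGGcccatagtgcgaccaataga
Canx, chr11:50325780-50325838, minus strand: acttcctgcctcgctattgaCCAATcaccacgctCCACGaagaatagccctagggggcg
Pdia6, chr12:17266471-17266529, plus strand: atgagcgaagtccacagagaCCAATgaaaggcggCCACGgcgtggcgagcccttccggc
Derl3, chr10:75893222-75893280, plus strand: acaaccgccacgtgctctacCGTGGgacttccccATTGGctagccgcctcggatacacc
Syvn1, chr19:6046512-6046570, plus strand: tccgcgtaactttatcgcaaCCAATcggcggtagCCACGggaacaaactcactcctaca
Herpud1, chr8:94386296-94386407, plus strand: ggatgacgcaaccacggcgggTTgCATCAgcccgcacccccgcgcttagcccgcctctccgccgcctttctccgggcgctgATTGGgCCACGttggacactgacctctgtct

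The element of Creld2 began 126 bases upstream of the gene's start, and those of the others lay between 162 (Calr) and 44 bases upstream (Syvn1). The Sdf2l1 and Ddit3 windows held none of the motifs in the exact letters searched. The 6 members with either ER stress element in the brighter 50% had a median difference of ALDO effects of 0.22 (-0.11 to 0.84), and the 18 with a window but neither element 0.20 (-0.08 to 1.02). These medians are descriptions of small lists and were not tested.

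The disulfide isomerases, which form and rearrange disulfide bonds, were by their brightest probe sets all a little lower in KO control than in WT control and in WT ALDO than in WT control. Pdia4 had 1409 in KO ALDO, 1290 in WT ALDO, 1151 in KO control and 1420 in WT control, the lowest array being KO control. Pdia6, which also binds the stress sensors, had 2581 in KO ALDO, 2461 in WT ALDO, 2549 in KO control and 2887 in WT control. Pdia3, the partner of calnexin and calreticulin, had 6497 in KO ALDO, 7213 in WT ALDO, 6868 in KO control and 8223 in WT control. These 3 were highest in WT control, by a small margin for Pdia4. P4hb, which also serves as a subunit of collagen prolyl hydroxylase, was nearly flat with 14313 in KO ALDO, 14661 in WT ALDO, 14370 in KO control and 15005 in WT control. KO control minus WT control was -0.30 to -0.06 over the 4 genes (median -0.22), KO ALDO minus WT ALDO -0.15 to 0.13 (median 0.02), and the difference of ALDO effects 0.03 to 0.43. Dim second probe sets did not all follow. That of Pdia3 gave 0.32 for KO control minus WT control and 0.46 for KO ALDO minus WT ALDO, and that of Pdia6 gave -0.17 and 0.52. That of Pdia4 gave -0.09 and 0.05, and 0.11 for WT ALDO minus WT control.

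**Figure D4:**
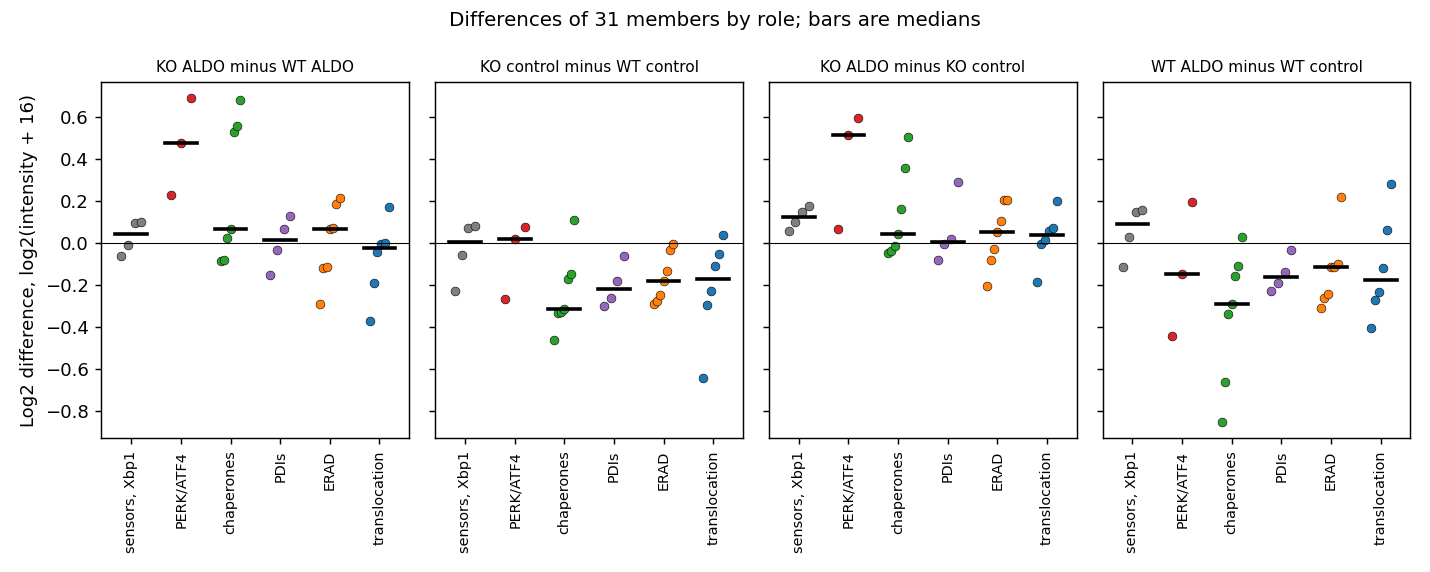
Log2 differences of the 31 members in the 4 comparisons, with 1 point per gene, genes ordered by role and horizontal bars at the medians. The chaperone group reaches from -0.85 to 0.03 for WT ALDO minus WT control and from -0.09 to 0.68 for KO ALDO minus WT ALDO. The 4 sensor and Xbp1 points, from the brightest probe sets, stay within 0.23 of 0 in all panels.

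By their brightest probe sets, the genes at the head of the response were nearly level across arrays. Ern1, which encodes IRE1, had 955 in KO ALDO, 891 in WT ALDO, 845 in KO control and 797 in WT control. Eif2ak3, which encodes PERK, had 1187 in KO ALDO, 1108 in WT ALDO, 1140 in KO control and 1085 in WT control. Atf6 had 992 in KO ALDO, 1037 in WT ALDO, 895 in KO control and 933 in WT control. The differences of these 3 probe sets lay between -0.06 and 0.17 in the 4 comparisons. Second probe sets varied more. The dim one of Ern1 had 80.0 in KO ALDO, 88.9 in WT ALDO, 137 in KO control and 69.7 in WT control, which gave 0.84 for KO control minus WT control and -0.67 for KO ALDO minus KO control. The dim one of Eif2ak3 had 67.9 in KO ALDO, 42.5 in WT ALDO, 45.0 in KO control and 44.6 in WT control, or 0.52 for KO ALDO minus WT ALDO. That of Atf6 was bright and stayed between -0.12 and 0.16. Xbp1, whose spliced form is the active factor, had 10129 in KO ALDO, 10189 in WT ALDO, 9434 in KO control and 11037 in WT control. Its 4 bright probe sets gave KO control minus WT control as -0.23, -0.25, -0.24 and -0.20, but KO ALDO minus WT ALDO as -0.01, 0.13, -0.05 and 0.31, so the first of these comparisons had 1 sign in all 4 probe sets and the other did not. Spliced and unspliced Xbp1, and the activity of the sensors, were not measured.

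In the PERK and ATF4 arm, Ddit3 and Ppp1r15a were highest in KO ALDO. Ddit3, which encodes the stress factor CHOP, had 853 in KO ALDO, 523 in WT ALDO, 592 in KO control and 716 in WT control, so that the order of the genotypes was opposite under the 2 treatments. Its differences were 0.69 for KO ALDO minus WT ALDO and -0.27 for KO control minus WT control. A dimmer probe set of Ddit3, below the brighter 50%, gave 1.12 and -0.94. It had 43.8 in KO ALDO, 11.5 in WT ALDO, 29.4 in KO control and 71.2 in WT control. Each value lay below the median of its array, so these larger differences are less certain. Ppp1r15a, the phosphatase subunit that undoes the PERK block of translation, had 547 in KO ALDO, 388 in WT ALDO, 356 in KO control and 337 in WT control. KO ALDO was thus its highest array, with differences of 0.48 from WT ALDO and 0.60 from KO control. Atf4, controlled mainly at translation, had 2643 in KO ALDO, 2252 in WT ALDO, 2525 in KO control and 2491 in WT control, a difference of 0.23 under ALDO and 0.02 on the control treatment. Its next probe set gave 0.22 under ALDO and -0.26 on the control treatment.

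The other members of this arm were dim, and their differences are less certain. Asns, asparagine synthetase, had 336 in KO ALDO, 177 in WT ALDO, 250 in KO control and 164 in WT control, higher in KO under both treatments, by 0.87 under ALDO and 0.56 on the control treatment, and its second probe set gave 1.11 and 0.65. Chac1, a glutathione-degrading enzyme, had 171 in KO ALDO, 162 in WT ALDO, 99.0 in KO control and 106 in WT control, and so was higher under ALDO in either genotype. Trib3, a pseudokinase induced by CHOP, had 113 in KO ALDO, 62.1 in WT ALDO, 27.1 in KO control and 74.9 in WT control. Its next probe set gave -1.93 for KO ALDO minus WT ALDO, against 0.73 for the brightest, so no direction is drawn for Trib3.

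Genes of ER-associated degradation recognise misfolded proteins and move them to the proteasome. By their brightest probe sets, all were at or below 0 in KO control against WT control (-0.29 to -0.00 over 7 genes, median -0.18). Bright next probe sets were above 0 there for Syvn1 (0.21), Os9 (0.13) and Derl2 (0.005). Those of Herpud1, Edem1, Sel1l and Derl1 were below 0. Under ALDO the brightest probe sets were mixed between genotypes (-0.29 to 0.21, median 0.07). Edem1, a lectin-like mannosidase relative that picks glycoproteins for degradation, had 1632 in KO ALDO, 1552 in WT ALDO, 1573 in KO control and 1927 in WT control. Its next probe set gave KO ALDO minus WT ALDO as -0.38, against 0.07 for the brightest, and the difference of ALDO effects as -0.23, against 0.36. Sel1l, the adaptor of the ligase Syvn1, had 2764 in KO ALDO, 2379 in WT ALDO, 2399 in KO control and 2854 in WT control. The 3 bright probe sets of Sel1l all gave a positive KO ALDO minus WT ALDO (0.21, 0.06 and 0.39) and a negative KO control minus WT control (-0.25, -0.13 and -0.27). Syvn1 itself had 1449 in KO ALDO, 1273 in WT ALDO, 1255 in KO control and 1377 in WT control. Both bright probe sets of Syvn1 were higher in KO ALDO than in WT ALDO (0.19 and 0.51), but they differed in sign on the control treatment (-0.13 and 0.21).

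Herpud1, a membrane protein that gathers the degradation complex and a common marker of ER stress, ran against the WT ALDO pattern. It had 7140 in KO ALDO, 8738 in WT ALDO, 6634 in KO control and 7512 in WT control, and was highest in WT ALDO. KO ALDO minus WT ALDO was -0.29, and its next probe set gave -0.26. Of the derlins, which are channel-like proteins of the same machinery, Derl1 had 4151 in KO ALDO, 4509 in WT ALDO, 4782 in KO control and 4886 in WT control. Derl2 had 2513 in KO ALDO, 2720 in WT ALDO, 2658 in KO control and 3216 in WT control. Both were lowest in KO ALDO and highest in WT control, although the next probe set of Derl2 was highest in KO ALDO, with 0.42 for KO ALDO minus WT ALDO. Derl3, dim, had 257 in KO ALDO, 204 in WT ALDO, 196 in KO control and 258 in WT control. Os9, a lectin of the pathway, was flat with 2419 in KO ALDO, 2306 in WT ALDO, 2467 in KO control and 2472 in WT control, while its next probe set gave ALDO against control as -0.39 in KO and -0.31 in WT.

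In protein translocation and signal peptide cleavage, the signal peptidase genes differed most. Sec11c, a catalytic subunit, had 1442 in KO ALDO, 1870 in WT ALDO, 1444 in KO control and 2262 in WT control. It was lower in KO under both treatments, by -0.37 under ALDO and -0.64 on the control treatment, and its KO arrays were nearly equal. Its other probe set was dim and gave the opposite sign in both (0.48 and 0.36). Spcs2, an accessory subunit, had 3147 in KO ALDO, 2796 in WT ALDO, 3019 in KO control and 3706 in WT control, which puts WT control at the top and WT ALDO at the bottom. ALDO against control in WT was -0.40 and -0.35 in its 2 probe sets. Sec61b, a subunit of the translocation channel, had 4753 in KO ALDO, 4891 in WT ALDO, 4528 in KO control and 5305 in WT control.

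The subunits Ssr1, Ssr2 and Ssr3 of the translocon-associated complex had no common pattern. Ssr1 had 4486 in KO ALDO, 4503 in WT ALDO, 4436 in KO control and 4318 in WT control, within 1.04-fold of each other, although its next probe set gave 0.41 for KO control minus WT control. Ssr2 had 1314 in KO ALDO, 1315 in WT ALDO, 1494 in KO control and 1548 in WT control, lower under ALDO in either genotype (-0.18 in KO and -0.23 in WT). Ssr3 had 6630 in KO ALDO, 7559 in WT ALDO, 5772 in KO control and 6228 in WT control, higher under ALDO in either genotype (0.20 in KO and 0.28 in WT), but its other bright probe set did not follow (-0.15 and 0.01).

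For 16 members a second probe set was also among the brighter 50%, and it had the same sign as the brightest in 13 for WT ALDO minus WT control. The sign was the same in 10 for KO control minus WT control, in 11 for KO ALDO minus WT ALDO, in 8 for KO ALDO minus KO control and in 11 for the difference of ALDO effects. These probe sets read the same RNA and say nothing of the spread between mice. Manf, Sdf2l1, Creld2 and Ppp1r15a were not among the 16. With dim second probe sets counted too, the sign was the same in 17 of 25 members for KO control minus WT control, in 16 for KO ALDO minus WT ALDO, in 18 for WT ALDO minus WT control, in 15 for KO ALDO minus KO control and in 18 for the difference of ALDO effects.

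Some other genes of the same machinery showed the pattern, among them Hspa5 and Hsp90b1, and others showed it in part. Hspa5, the chaperone BiP, had 10209 in KO ALDO, 9130 in WT ALDO, 9852 in KO control and 11993 in WT control, and Hsp90b1, the chaperone GRP94, had 7427 in KO ALDO, 6882 in WT ALDO, 7266 in KO control and 8859 in WT control. Both were lowest in WT ALDO and highest in WT control, with differences of ALDO effects of 0.44 and 0.40. The co-chaperone Dnajb9 had 5089 in KO ALDO, 3910 in WT ALDO, 5200 in KO control and 5212 in WT control, so that WT ALDO stood alone at the low end. Dnajc3, an inhibitor of PERK, was flatter, with 4857 in KO ALDO, 4561 in WT ALDO, 5277 in KO control and 5080 in WT control. Over the 60 measured genes of that list, medians lay between -0.02 and 0.01 in the 4 comparisons. Their difference of ALDO effects had a median of 0.07, below the members' 0.20. It was above 0 for 39 of the 60, against 50.6% of all genes, and 0 of the 60 reached 1.5-fold in it. In WT ALDO against WT control 1 of the 60 was lower by 1.5-fold or more (Ube2j1, -0.63, a ubiquitin-conjugating enzyme of ER degradation), and 0 of the 60 passed 1.5-fold in the other 3 comparisons. Dnajb9 and Srprb (both -0.41) followed Ube2j1. In KO ALDO against WT ALDO, Srprb, a subunit of the receptor for the signal recognition particle, was highest (0.58), then Wfs1 (0.41) and Dnajb9 (0.38), and Crebrf was lowest (-0.57), then Pdia5 (-0.35). In KO control against WT control Txndc5 (-0.38), Txndc11 (-0.34) and Ube2j1 (-0.33) were lowest and Nfe2l1 (0.39) highest. Txndc5 (0.34) was highest and Cdk5rap3 (-0.34) lowest in KO ALDO against KO control.

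Other ATF4 and amino acid response genes had no common direction. Of 24 measured genes, 1 was higher and 2 lower by 1.5-fold or more in KO ALDO against WT ALDO, with a median of 0.06. Gadd45a, a growth arrest gene, had 1109 in KO ALDO, 719 in WT ALDO, 905 in KO control and 1057 in WT control, lowest in WT ALDO as for Manf, but with KO ALDO at the top. Nupr1, a stress-induced chromatin protein, had 2917 in KO ALDO, 2006 in WT ALDO, 1178 in KO control and 1370 in WT control, and was the highest of the list in KO ALDO against KO control (1.30). Atf5 (0.66) and Cebpb (0.62) followed it there, and 4 of the 24 were higher by 1.5-fold or more. Sesn2, an amino acid sensor, had 372 in KO ALDO, 729 in WT ALDO, 535 in KO control and 602 in WT control, so WT ALDO was its top array, and it was the lowest of the list in KO ALDO against WT ALDO (-0.94), followed by Yars (-0.61) and Cth (-0.56). In KO control against WT control the serine synthesis enzyme Phgdh was lowest (-0.65) and the mTORC1 inhibitor Ddit4 highest (0.65). Pmaip1 (-0.57) and Gadd45a (-0.55) were lowest and Nupr1 (0.54) highest in WT ALDO against WT control, where 0 of the 24 passed 1.5-fold. Atf3, a stress-induced transcription factor, was dim, with 182 in KO ALDO, 47.2 in WT ALDO, 129 in KO control and 36.9 in WT control, and so higher in KO under both treatments.

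Markers of cell types differed between the same arrays. Macrophage markers summed to 14198 in KO ALDO, 6454 in WT ALDO, 12838 in KO control and 6592 in WT control, and all 8 in the brighter 50% were above 0 between genotypes under either treatment. Endothelial markers summed to 34172 in KO ALDO, 24576 in WT ALDO, 26291 in KO control and 20321 in WT control, with all 11 above 0 between genotypes. Smooth muscle markers summed to 9392, 5009, 4021 and 3194 in the same order, mesangial markers to 15626, 12553, 11964 and 10014, and parietal epithelial markers to 9423, 6433, 8548 and 6469. Thus the sums of these lists were higher in KO than in WT under both treatments, though not every marker was. Podocyte markers summed to 38453 in KO ALDO, 35183 in WT ALDO, 34483 in KO control and 34175 in WT control. Of the 11 podocyte markers in the brighter 50%, 8 were below 0 in KO control against WT control (median -0.10). Under ALDO, 10 of the 11 were above 0 between genotypes (median 0.13), against 51.3% of all genes. Their difference of ALDO effects was above 0 in 10 of 11 (median 0.17), against 50.6% of all genes. The members' medians had the same signs, but the sign of theirs under ALDO is not settled. Proximal tubule markers summed to 303558 in KO ALDO, 327368 in WT ALDO, 329116 in KO control and 342240 in WT control. The proximal tubule list thus had its highest sum in WT control, the array that was also highest for most members. Of its 16 markers, 11 were below 0 in KO control against WT control, and 11 in WT ALDO against WT control. In KO ALDO, 12 of the 16 were below 0 against WT ALDO (median -0.17) and 12 against KO control (median -0.10). The members' medians in those comparisons were 0.07 and 0.06. The tubule markers' difference of ALDO effects had a median of -0.03, against the members' 0.20. Distal nephron markers summed to 96228, 93513, 89670 and 84757 in that order. B and plasma cell markers summed to 2319, 1881, 2094 and 1854, with 3 of 10 in the brighter 50%. Jchain at 112 to 147 and Mzb1 at 125 to 178 were dim on every array. T cell markers summed to 205 to 348 and neutrophil markers to 1348 in KO ALDO, 215 in WT ALDO, 1209 in KO control and 956 in WT control. The neutrophil sum was thus lowest in WT ALDO, with 1 of its 8 markers, S100a8, in the brighter 50%. S100a8, which is part of that sum, had 533 in KO ALDO, 34.5 in WT ALDO, 462 in KO control and 383 in WT control. Sdc1, counted with the plasma cell markers and also made by epithelia, had 810 in KO ALDO, 396 in WT ALDO, 653 in KO control and 564 in WT control. It too was lowest in WT ALDO, but the sum of its list and Jchain were lowest in WT control, and Mzb1 in KO control. The B cell gene Cd79a lay between 3.27 and 24.5 on the 4 arrays, with 24.2 in WT ALDO. The part of any of these cell types in the members' differences was not tested.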

How the data were processed

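Glomerular RNA of 4 groups of male mice was measured on 1 Affymetrix array each. The deposited values are probe set intensities on a linear scale, made with Affymetrix Expression Console per the submitters' processing notes. Its algorithm, version and background correction were not given in the sources used here. A trimmed mean (2% off each end) of the deposited intensities was 500.003 for all 4 arrays, so a shift of the whole transcriptome would not show.

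Groups were taken from the sample titles. Intensities were transformed as log2(intensity + 16), which understates changes of dim genes, with pandas 2.3.3 and numpy 2.4.6. Symbols came from the platform annotation: 1 symbol for 34945 probe sets, several for 932 and no listing for 9211. The last 2 kinds and 64 control probe sets were not used for genes. The brightest probe set stood for its gene. The symbols of all 35 members matched a RefSeq table through their Entrez identifiers. Members and lists were chosen with earlier results of these data known. Every member was to be named, and of the 2 other ER and ATF4 lists up to 3 genes at either end of a comparison, with Hspa5, Hsp90b1, Dnajb9, Dnajc3 and Atf3 always. No p-value, standard error or set test was computed. A description of protein tails was planned and not made, as no protein sequences were used here. The steps were tested on simulated data. Alternatives were quantile normalization, centring arrays on their medians, pseudocounts of 1 and 64, other ways of choosing probe sets, no filter on dim genes and the brightest 25% of genes.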

Additional observations from a re-analysis of the deposited data

Results flagged for a closer look

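ALDO against control had opposite signs in KO and in WT for 17 of the 35 members, 15 of them among the brighter 50%, and with 1 array per group the difference between the genotypes was not tested. Of the 31 brighter members, 14 were lower under ALDO in WT and higher in KO, as were 19.1% of all genes, and 1 was the opposite, as were 18.7%. The median over the 31 members was 0.06 in KO and -0.14 in WT, a difference of 0.20. In 16 of the 17 members the effect in KO minus the effect in WT was positive. It was 1.02 for Sdf2l1, 1.01 for Manf, 0.96 for Ddit3 and 0.84 for Creld2, which were lower under ALDO in WT and higher under ALDO in KO. Smaller differences were 0.46 for Sel1l, 0.46 for Spcs2, 0.43 for Pdia4, 0.36 for Edem1 (-0.23 with its next probe set), 0.32 for Syvn1, 0.25 for Pdia6, 0.22 for Xbp1, 0.21 for Atf4, 0.20 for Calr and 0.19 for Sec61b. The dim genes Trib3 (1.80) and Derl3 (0.68) are less certain, and Hyou1 (-0.042) was close to 0. All these values rest on the same 4 arrays and are not separate observations.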

How the results depend on the processing

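The medians for KO control minus WT control (-0.29 to -0.12), WT ALDO minus WT control (-0.18 to -0.13) and the difference of ALDO effects (0.16 to 0.25) kept their sign under all 8 alternatives. With arrays centred on their medians, which moved every difference between genotypes by -0.11 on the control treatment and by -0.14 under ALDO, the median became -0.076 for KO ALDO minus WT ALDO and -0.0075 for KO ALDO minus KO control, and the number at 1.5-fold or more became 0 in both. In the brightest 25% of genes the KO ALDO minus WT ALDO median was -0.00054, and the numbers were 1 there, 1 for WT ALDO minus WT control and 0 for KO ALDO minus KO control. The last was also 0 with quantile normalization or a pseudocount of 64. With dim members kept the numbers were 2 for KO control minus WT control, 4 for KO ALDO minus WT ALDO and 3 for KO ALDO minus KO control. With the next-brightest probe set they were 2, 2, 4 and 2 for KO control minus WT control, KO ALDO minus WT ALDO, WT ALDO minus WT control and KO ALDO minus KO control. Trib3 turned under ALDO between genotypes (-0.60 with the mean of probe sets, -1.93 with the next), against KO control (-0.083 with the next) and in the difference of effects (-0.029 and -1.86). Sec11c turned on the control treatment with the next probe set (0.36). The difference of ALDO effects of Edem1 was 0.067 with the mean of probe sets and -0.23 with the next. Apart from fewer or more genes being counted, the causes were not tested. No paired analysis was possible because each group had 1 array. Dim probe sets, near the array medians, limit Trib3, Chac1, Asns and Derl3.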
